A study of Mus musculus with 12 samples.

Results

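The 4 Id genes (Id1, Id2, Id3 and Id4) and the 3 E protein genes (Tcf3, Tcf4 and Tcf12) were followed in lineage-depleted bone marrow, 7 genes among the 34760 transcript clusters of the array table. A transcript cluster is the set of probes that the array summarises as 1 value, and each of the 7 genes had 1 transcript cluster annotated to it alone, so no choice between probe sets arose. The genes were chosen by name. RNA came from 6 E4bp4-/- mice and 6 E4bp4+/+ mice, with 1 GeneChip Mouse Gene 1.0 ST array per mouse. Marrow of the hind legs had been cleared magnetically of cells that carried Ter119, GR1, CD11b, B220, CD2 or NK1.1. E4bp4 is another name of the basic leucine zipper factor Nfil3, which natural killer (NK) cells need for their development. The sources used here do not give strain, age or the deleted part of the gene, or tie the deletion to a tissue. All values are log2 levels, and a level of one gene cannot be set against that of another, since probes differ in brightness.

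E proteins are basic helix-loop-helix transcription factors that bind DNA as pairs and switch on genes of early lymphoid development. Tcf3 encodes E2A, Tcf4 encodes E2-2 and Tcf12 encodes HEB. Id proteins have a helix-loop-helix but lack the basic region that touches DNA, so an E protein paired with an Id protein cannot bind. Id2 is needed by NK cells, innate lymphoid cells and some dendritic cells, E2A by B cell precursors, and E2-2 by plasmacytoid dendritic cells. The study asked which genes E4bp4 regulates in bone marrow, and Id2 was linked to E4bp4 in earlier work on NK cell development.

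Median levels of the 12 arrays ran from 6.50 to 6.62, and the 20th percentile, used as the floor for testing, from 4.93 to 4.99. The targeted gene Nfil3 lay between 6.34 and 6.92 in E4bp4-/- arrays and between 6.94 and 7.66 in E4bp4+/+ arrays, with no overlap. E4bp4-/- replicate 1 stood apart: Xist measured 6.08 there and 12.10 to 12.65 in every other mouse, and its Y-linked Uty was 7.70, against 4.31 to 4.66. Differences of the members, correlations and list counts are therefore also given without that array. Kit, the stem cell factor receptor of marrow progenitors, averaged 11.26 ± 0.09 in E4bp4-/- and 11.07 ± 0.13 in E4bp4+/+ marrow (SD, n = 6 each). Of 9 NK markers tested, 5 lay no more than 0.5 log2 above the 20th percentile, which gives no number of cells, since probe brightness is unknown.

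Id2 had the largest difference between genotypes of the 7 members, toward a lower mean in E4bp4-/- marrow, but did not pass the test adjusted over all transcript clusters. Its level was 7.52 at the lowest, 7.72 at the median and 9.19 at the highest in E4bp4-/- arrays, against 8.50, 8.81 and 9.32 in E4bp4+/+ arrays. The E4bp4-/- arrays were divided: replicates 3, 4, 5 and 6 lay between 7.52 and 7.72, below every E4bp4+/+ array. Replicates 1 and 2, at 9.19 and 8.72, lay within the E4bp4+/+ range, so the groups overlapped. The difference of the means was -0.77 ± 0.28 log2 (SE), a level in E4bp4-/- marrow 0.588 times that in E4bp4+/+ marrow, with a 95% interval from 0.385 to 0.897.

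By limma's moderated test over 29541 transcript clusters, the unadjusted p of Id2 was 0.0177 and its Benjamini-Hochberg adjusted p 0.255, which missed the threshold of 0.05. Over all regroupings of the 12 Id2 values the exact permutation p, two-sided, was 0.0411. At the adjusted threshold 0 of the 7 members and 0% of all transcript clusters passed. At an unadjusted p under 0.05, 1 of the 7 members passed, against 14.9% of all transcript clusters (8.47% higher and 6.39% lower in E4bp4-/-), so a single member is near the background share. The arrays of the genotypes were separated for 0 of the 7 members, against 1.27% of all transcript clusters in either direction and 0.65% in the direction of a lower level. In whole marrow fractions, fewer cells that express Id2 and less Id2 RNA per cell cannot be told apart. Without E4bp4-/- replicate 1 the Id2 difference was -0.99 log2, with an adjusted p of 0.174 in limma and an exact permutation p of 0.0173. Leaving out each of the 12 arrays in turn moved the exact permutation p between 0.0173 and 0.0823, and it stayed under 0.05 in 2 of the 12 cases, those without E4bp4-/- replicate 1 or 2.

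**Figure D1:**
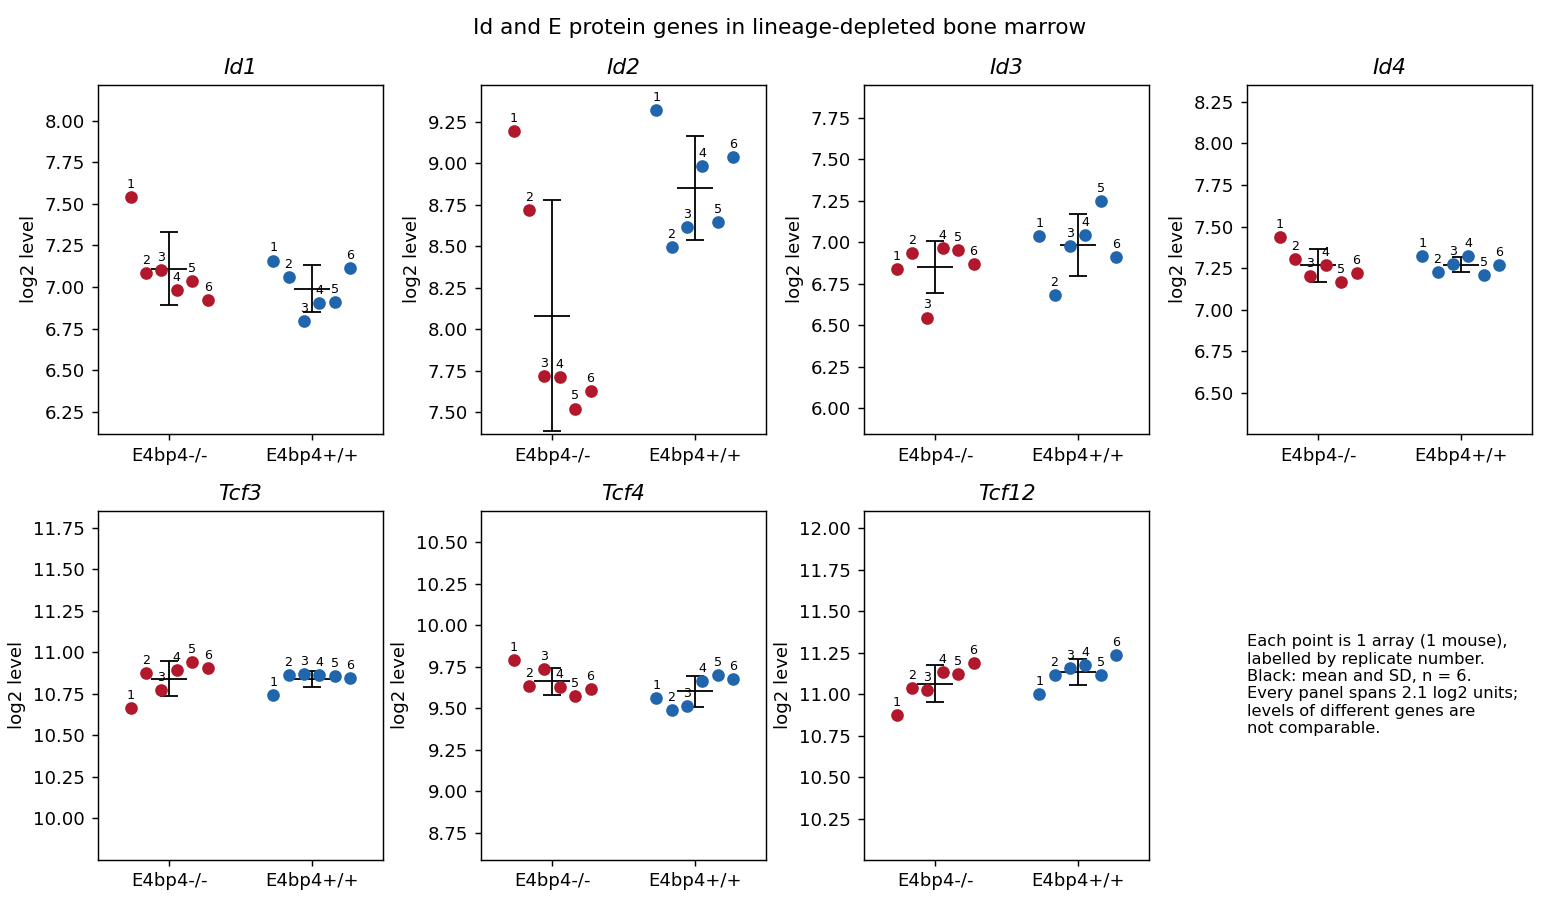
Log2 level (vertical axis, the same span in each panel) of the 7 genes on each array, with 6 E4bp4-/- arrays (red, left) and 6 E4bp4+/+ arrays (blue, right) numbered by replicate; black marks are the mean and SD. In the Id2 panel 4 E4bp4-/- arrays sit between 7.52 and 7.72, below the lowest E4bp4+/+ array at 8.50, and the other panels show overlapping groups.

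The remaining Id genes, which encode inhibitors of the same family, had differences of 0.13 log2 or less in size. Id1, a known target of bone morphogenetic protein (BMP) signalling, was 6.92 at the lowest, 7.06 at the median and 7.54 at the highest in E4bp4-/- arrays, against 6.79, 6.99 and 7.16 in E4bp4+/+ arrays. The highest value was E4bp4-/- replicate 1, and the other 5 E4bp4-/- arrays lay within the E4bp4+/+ range. The Id1 difference was 0.12 ± 0.10 log2 (limma adjusted p 0.585, exact permutation p = 0.323), and 0.036 without that array. Id3, which acts beside Id2 in lymphocytes, was 6.55, 6.90 and 6.97 in E4bp4-/- arrays, against 6.68, 7.01 and 7.25 in E4bp4+/+ arrays. Only E4bp4-/- replicate 3 lay below all E4bp4+/+ arrays, and the Id3 difference was -0.13 ± 0.09 log2, with or without E4bp4-/- replicate 1 (adjusted p 0.525, exact permutation p = 0.232). Id4 was nearly level, at 7.16, 7.24 and 7.44 in E4bp4-/- arrays and 7.21, 7.27 and 7.32 in E4bp4+/+ arrays, a difference of -0.0047 ± 0.048 log2 and, without E4bp4-/- replicate 1, of -0.039 (adjusted p with all arrays 0.974, exact permutation p = 0.916). For Id4, 2 E4bp4-/- arrays lay below and 1 lay above all E4bp4+/+ arrays. It lies on chromosome 13 within 5 Mb of Nfil3 in GRCm38.p6, the only one of the 7 on the chromosome of the targeted gene. The 95% intervals of the differences were -0.09 to 0.34 log2 for Id1, -0.33 to 0.07 for Id3 and -0.11 to 0.10 for Id4, against -1.38 to -0.16 for Id2.

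The E protein genes had differences of 0.07 log2 or less in size. Tcf3 was 10.66 at the lowest, 10.89 at the median and 10.94 at the highest in E4bp4-/- arrays, against 10.74, 10.86 and 10.87 in E4bp4+/+ arrays. The lowest array of each genotype was its replicate 1, and 4 E4bp4-/- arrays lay just above all E4bp4+/+ arrays. Tcf4 was 9.57, 9.63 and 9.79 in E4bp4-/- arrays and 9.49, 9.61 and 9.70 in E4bp4+/+ arrays, and the groups overlapped. Tcf12 was 10.87, 11.08 and 11.19 in E4bp4-/- arrays and 11.00, 11.14 and 11.23 in E4bp4+/+ arrays, with 1 E4bp4-/- array, replicate 1, below all of these. Differences were 0.0012 ± 0.050 log2 for Tcf3, 0.06 ± 0.05 for Tcf4 and -0.07 ± 0.06 for Tcf12, with limma adjusted p-values of 0.995, 0.598 and 0.574 and exact permutation p-values of 0.985, 0.242 and 0.240 in the same order. Their 95% intervals ran from -0.11 to 0.11 for Tcf3, -0.05 to 0.18 for Tcf4 and -0.19 to 0.05 for Tcf12. As ratios of E4bp4-/- to E4bp4+/+ levels these intervals are 0.928 to 1.08 for Tcf3, 0.965 to 1.13 for Tcf4 and 0.875 to 1.04 for Tcf12. Without E4bp4-/- replicate 1 the differences were 0.037 log2 for Tcf3, 0.037 for Tcf4 and -0.033 for Tcf12. Whether Id2 differed more than the other members was not tested.

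**Figure D2:**
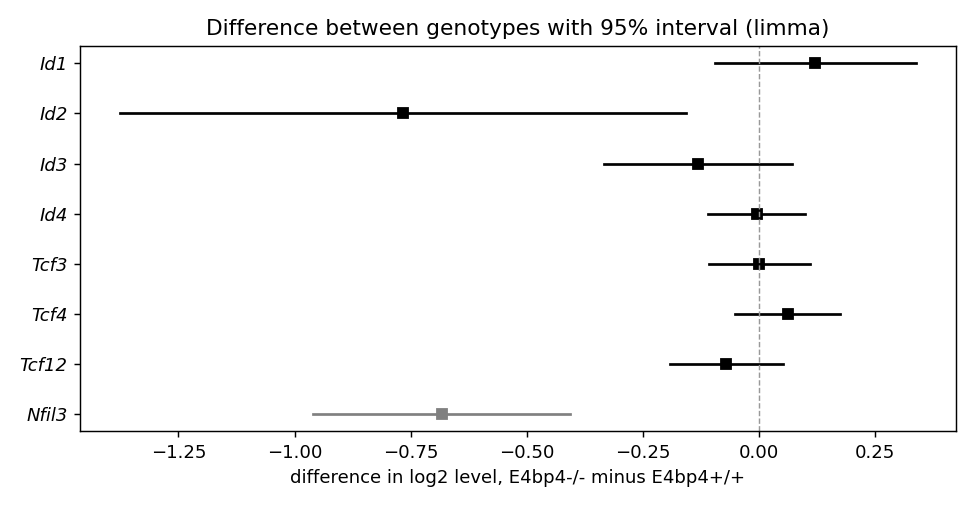
Difference in log2 level, E4bp4-/- minus E4bp4+/+ (horizontal axis), for the 7 genes (black) and the targeted gene Nfil3 (grey); squares are limma estimates and bars their 95% intervals, from 6 arrays per genotype. Among the 7 genes the Id2 interval, -1.38 to -0.16, lies wholly below 0, and those of the other 6 hold 0.

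Id2 also varied among mice of the same genotype. Its SD within genotypes was 0.54 log2, larger than that of 99.3% of 17807 genes with 1 transcript cluster each. The SD of Id2 was 0.70 in E4bp4-/- arrays and 0.31 in E4bp4+/+ arrays, above 99.5% and 97.6% of genes in the same arrays. Id1 and Id3 came next, with an SD within genotypes of 0.19 log2 for Id1 and 0.17 for Id3, above 89.0% and 87.0% of genes. Id4 and the E proteins were steady, with an SD from 0.077 for Id4 to 0.095 for Tcf12, and percentiles from 24.9 to 46.0. All 7 members lay above the 20th percentile, the floor used for testing, on all 12 arrays. That floor does not mark absence of RNA, since Xist still measured 6.08 in E4bp4-/- replicate 1, the array with Y-linked signal. Id1, Id3 and Id4 had genotype means of 6.85 to 7.27, not far above the array medians. How much of their levels is background was not tested.

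Levels of several members moved together from mouse to mouse. With the genotype means removed, 21 pairs were correlated over the 12 arrays, and permutation p-values came from shuffles within genotypes. Id2 and Id4 had r = 0.902 (permutation p = 0.00053, adjusted 0.0111) and rho = 0.783 (permutation p = 0.00612, adjusted 0.0643). For that pair r was 0.927 within E4bp4-/- and 0.789 within E4bp4+/+ arrays, and 0.723 without E4bp4-/- replicates 1 and 2, the arrays farthest from the median of Id2. It was 0.789 without E4bp4-/- replicate 1 and 0.747 without both arrays numbered 1. The span of Id4 over all arrays was 0.27 log2, so it moved with Id2 at a much smaller scale.

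Tcf3 and Tcf12 varied together, and Tcf3 varied against Id1. Tcf3 and Tcf12 had r = 0.854 (permutation p = 0.00397, adjusted 0.0278) and rho = 0.685 (permutation p = 0.0204, adjusted 0.107), with r = 0.911 within E4bp4-/- and 0.734 within E4bp4+/+ arrays. Id1 and Tcf3 had r = -0.836 (permutation p = 0.00119, adjusted 0.0125) and rho = -0.713 (permutation p = 0.00293, adjusted 0.0615), with r = -0.892 within E4bp4-/- and -0.687 within E4bp4+/+ arrays. Id1 and Id2 had r = 0.764 (permutation p = 0.00891, adjusted 0.0468) and rho = 0.580 (permutation p = 0.0384, adjusted 0.134), with 0.831 and 0.574 within the genotypes. For these 3 pairs the arrays farthest from the median were both numbered 1, and without them r was 0.495 for Tcf3 and Tcf12, -0.378 for Id1 and Tcf3, and 0.306 for Id1 and Id2. Without E4bp4-/- replicate 1 alone it was 0.705 for Tcf3 and Tcf12, -0.587 for Id1 and Tcf3, and 0.462 for Id1 and Id2. These 3 relations rested largely on those arrays. Id2 against Tcf3 had r = -0.718 (permutation p = 0.0375, adjusted 0.105) and rho = -0.685 (permutation p = 0.0651, adjusted 0.171), with -0.700 within E4bp4-/- and -0.803 within E4bp4+/+ arrays. It was -0.636 without E4bp4-/- replicates 1 and 2, but -0.390 without E4bp4-/- replicate 1 alone and -0.164 without both arrays numbered 1. Tcf3 and Tcf4 had r = -0.988 within E4bp4-/- arrays and 0.117 within E4bp4+/+ arrays, with -0.559 over both (permutation p = 0.0557, adjusted 0.125) and rho = -0.650 (permutation p = 0.0126, adjusted 0.0881). Over both, r was -0.318 without E4bp4-/- replicate 1. That difference between genotypes was not tested. Of the 21 pairs, 4 passed an adjusted p of 0.05 by r and 0 by rho.

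**Figure D3:**
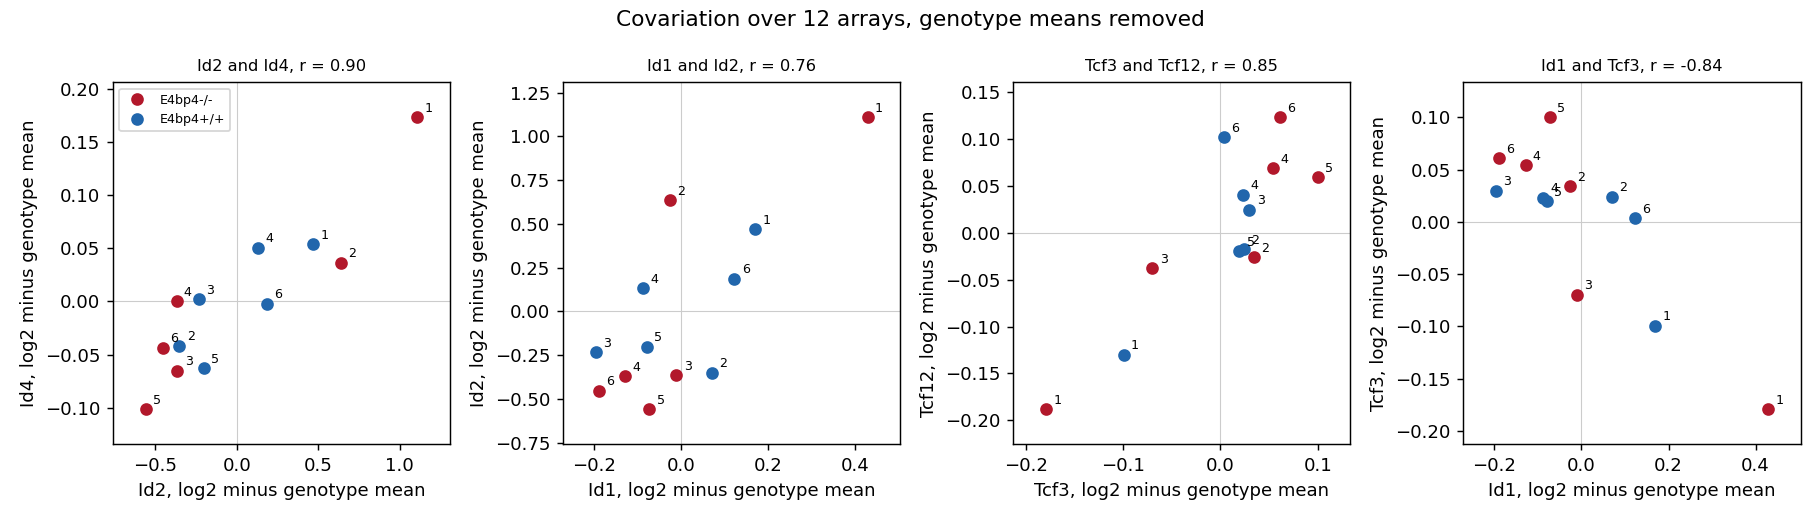
Log2 level minus the mean of its genotype for 4 pairs of genes on 12 arrays, E4bp4-/- in red and E4bp4+/+ in blue, numbered by replicate. Id2 and Id4 (r = 0.90) keep their relation without the arrays numbered 1, whereas Id1 and Tcf3 (r = -0.84) draw much of theirs from those arrays.

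Promoter windows are shown for genes that moved together, Id2 with Id4 and Tcf3 with Tcf12. Each holds the 250 bases before the annotated start, 5′ to 3′ on the gene's strand, from RefSeq in build GRCm38.p6, with each E-box in capitals. An E-box, CANNTG on either strand, is the element that E protein pairs bind. The windows are chr12:25096093-25096342 (minus strand) for Id2, chr13:48260866-48261115 (plus strand) for Id4, chr10:80433636-80433885 (minus strand) for Tcf3 and chr9:72111820-72112069 (minus strand) for the first listed start of Tcf12. Id2 holds CAGCTG beginning 196 bases before its start, Tcf3 holds CACTTG at 54 bases, Tcf12 holds CAGCTG at 240 bases, and Id4 holds none.
Id2: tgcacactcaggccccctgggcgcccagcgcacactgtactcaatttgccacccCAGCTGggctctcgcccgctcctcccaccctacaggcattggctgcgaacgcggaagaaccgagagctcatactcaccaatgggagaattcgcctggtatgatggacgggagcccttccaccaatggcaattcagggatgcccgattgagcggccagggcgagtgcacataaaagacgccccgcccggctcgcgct
Id4: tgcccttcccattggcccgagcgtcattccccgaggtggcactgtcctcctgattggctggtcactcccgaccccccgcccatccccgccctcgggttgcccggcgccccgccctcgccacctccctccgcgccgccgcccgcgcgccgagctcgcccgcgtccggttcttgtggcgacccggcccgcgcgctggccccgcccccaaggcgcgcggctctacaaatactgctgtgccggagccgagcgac
Tcf3: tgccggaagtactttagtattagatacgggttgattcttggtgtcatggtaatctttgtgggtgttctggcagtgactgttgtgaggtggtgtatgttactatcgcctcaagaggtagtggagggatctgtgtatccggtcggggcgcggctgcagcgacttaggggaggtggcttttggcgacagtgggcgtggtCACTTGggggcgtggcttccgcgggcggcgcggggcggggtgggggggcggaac
Tcf12: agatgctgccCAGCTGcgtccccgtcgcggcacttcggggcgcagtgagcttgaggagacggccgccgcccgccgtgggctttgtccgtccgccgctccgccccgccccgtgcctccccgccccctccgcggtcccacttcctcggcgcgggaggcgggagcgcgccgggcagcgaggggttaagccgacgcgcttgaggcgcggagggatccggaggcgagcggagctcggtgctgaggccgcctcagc

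In all, the search covered 5 of the 7 members, not Id1 or Tcf4, with 7 windows. Tcf4, on chromosome 18, was left out by a setting of the search. Of the 7 windows, 4 held CANNTG, against 66.2% of all 32851 windows. CAGCTG, which is 1 form of CANNTG, stood in 2 of the 7 windows, against 13.0% of all. CACCTG, another form searched on both strands, stood in 0 of the 7, against 17.2%. Of sites of the E4BP4 and PAR bZIP type, TTACGTAA and TTATGTAA were searched on both strands and stood in 0 of the 7 windows, against 0.113% and 0.819% of all. These matches describe letters in a window and were not tied to binding.

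The genes whose pattern was most like that of Id2 were ranked by Pearson's r over the 12 arrays with genotype means removed, among 17806 other genes. The first 5 were Sh3bp5, which binds the SH3 domain of Btk, Sh3kbp1, an adaptor with SH3 domains, Plbd1, a phospholipase B-like protein, Rbms1, an RNA-binding protein, and Adipor1, an adiponectin receptor. Their r ran from 0.937 (Adipor1) to 0.955 (Sh3bp5), and from 0.871 (Rbms1) to 0.910 (Sh3bp5) without E4bp4-/- replicate 1. Plbd1 had levels of 8.60 and 7.61 in E4bp4-/- replicates 1 and 2 and 6.14 to 6.76 in the other E4bp4-/- arrays, against 6.87 to 8.17 in E4bp4+/+ arrays. Replicates 3 to 6 were thus below every E4bp4+/+ array, as for Id2. Its difference was -0.45 ± 0.38 log2 (limma adjusted p 0.598). The other 4 shared the high E4bp4-/- replicates 1 and 2 but differed between genotypes by only -0.028 (Adipor1) to 0.11 log2 (Sh3bp5), with limma adjusted p-values from 0.655 to 0.938.

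Partners and regulators of the family were set beside the members in 6 lists, by the share with an unadjusted limma p under 0.05 and the median difference; over all transcript clusters the median was 0.015 log2. That median was 0.0051 with quantile scaling and -0.025 with arrays centred on their medians, and the medians of the 6 lists kept their signs under both. Of 17807 genes, 58.8% had higher means in E4bp4-/- marrow, and of transcript clusters 8.47% were higher and 6.39% lower at an unadjusted p under 0.05, the shares against which the counts stand. No gene of any list passed the adjusted threshold. Of 18 tissue-restricted bHLH genes, which pair with E proteins, 14 had higher means in E4bp4-/- marrow, 5 of them at an unadjusted p under 0.05, and 0 lower ones did; the median was 0.07. These counts were 14 and 6 without E4bp4-/- replicate 1, with a median of 0.04, and 58.2% of all genes were then higher. With quantile scaling 12 of the 18 had higher means, and 11 with arrays centred on their medians. Only 5 of the 18 averaged above the median level of the arrays. Bhlha15, the plasma cell and secretory cell factor, was 6.54 to 7.04 in E4bp4-/- arrays, against 6.38 to 6.58 in E4bp4+/+ arrays (0.28 ± 0.08 log2, limma adjusted p 0.184). Myf5, a muscle factor, differed by 0.14 ± 0.05 and Hand2, a heart and limb factor, by 0.21 ± 0.07; Myf5 averaged 5.03 in E4bp4-/- and 4.89 in E4bp4+/+ marrow, near the 20th percentile of the arrays. The muscle factor Myod1 and the heart factor Hand1 made up the 5, at 0.17 ± 0.06 and 0.12 ± 0.05. The blood partners Tal1 and Lyl1, named like Myod1 and Hand1 after their values were seen, differed by -0.08 ± 0.06 and 0.11 ± 0.09.

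Cofactors that E proteins recruit showed no common direction, with 9 of 18 higher, 9 lower and a median of -0.0082 log2. The difference of the list means had the other sign, at 0.013. Of these genes, 4 higher and 2 lower genes had an unadjusted p under 0.05, and without E4bp4-/- replicate 1 5 and 2 of them did. Cbfa2t3, a corepressor that E proteins recruit, was 9.94 to 10.35 in E4bp4-/- arrays, against 9.74 to 10.00 in E4bp4+/+ arrays (0.27 ± 0.08 log2, limma adjusted p 0.195). Gata2, a stem and mast cell factor found in the same complexes, differed by 0.17 ± 0.05, and Kat2b, a histone acetyltransferase, by -0.23 ± 0.07 (limma adjusted p-values 0.214 and 0.223). The others of the 6, named after their values were seen, were the deacetylase Hdac2 at -0.13 ± 0.05 and the acetyltransferases Ep300 at 0.11 ± 0.05 and Crebbp at 0.10 ± 0.04.

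Genes known to be driven by E proteins in early lymphoid cells had 16 of 22 higher means in E4bp4-/- marrow, 4 of them at an unadjusted p under 0.05, with 1 lower, and a median of 0.08 log2. These were 14 of 22, 3 and 1 without E4bp4-/- replicate 1, the median was 0.06, and the difference of the list means was 0.015, against 0.06 with all arrays. With quantile scaling, and with arrays centred on their medians, 14 of 22 had higher means. Ccr9, a chemokine receptor of lymphoid progenitors and plasmacytoid dendritic cells, was 5.82 to 6.44 in E4bp4-/- arrays, against 6.08 to 6.85 in E4bp4+/+ arrays (-0.51 ± 0.14, limma adjusted p 0.184). Cd79a and Vpreb1, parts of the B cell receptor and its precursor form, differed by 0.33 ± 0.11 and 0.26 ± 0.10 log2. Pax5 and Foxo1, transcription factors of B cell development named after their values were seen, were the remaining higher genes, at 0.19 ± 0.07 and 0.08 ± 0.04. B cell precursor markers, which share these genes, had 10 of 12 higher means; their list mean was 6.19 to 6.54 in E4bp4-/- arrays, against 6.11 to 6.27 in E4bp4+/+ arrays, and 10 were higher without E4bp4-/- replicate 1 too. The part of B lineage cells in these values was not tested.

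The list of BMP and TGF-beta signalling, which acts on Id genes, had 22 of 29 higher means and a median of 0.05 log2. At an unadjusted p under 0.05 there were 4 higher and 2 lower genes. The list holds antagonists beside receptors and ligands, so its counts give no direction of signalling. When E4bp4-/- replicate 1 was left out, 21 had higher means, 3 higher and 2 lower genes had such a p, and the median was 0.04. With arrays centred on their medians 15 of 29 had higher means. Acvrl1, a receptor of this family on endothelium, was 6.75 to 6.93 in E4bp4-/- arrays, against 6.47 to 6.76 in E4bp4+/+ arrays (0.19 ± 0.05, limma adjusted p 0.191). The type 2 receptor Bmpr2 differed by 0.21 ± 0.07 and Grem1, a secreted BMP antagonist, by 0.15 ± 0.06. The others, named after their values were seen, were the ubiquitin ligase Smurf1 at 0.17 ± 0.07, the receptor Bmpr1a at -0.15 ± 0.06 and the ligand Bmp7 at -0.15 ± 0.06. Of 6 early growth response genes, which act on Id3 downstream of antigen receptors, 4 had higher means and 1 had an unadjusted p under 0.05, as without E4bp4-/- replicate 1. This was Egr4, at 0.22 ± 0.06 (limma adjusted p 0.189). Egr2 differed by 0.11 ± 0.07 and Nab1, a corepressor of Egr proteins, by 0.07 ± 0.06.

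Of 19 genes of the innate lymphoid lineage, which depends on Id2, 11 had lower means and 4 of these an unadjusted p under 0.05, with 0 higher ones, and the median was -0.013 log2. When E4bp4-/- replicate 1 was left out, 13 had lower means, 4 of them with such a p, and the median was -0.04. The genes of lowest p were Icos, a costimulatory receptor, Nfil3 itself and Gata3, a transcription factor of T and innate lymphoid cells. Nfil3 is the targeted gene, so its place among the 11 and the 4 was set by the genotype and tells nothing of the lineage. The list was also chosen with earlier results of these data known, so its counts are not independent evidence about the lineage. In E4bp4-/- replicate 1 Icos, Nfil3 and Gata3, unlike Id2, lay below every E4bp4+/+ array. In E4bp4-/- replicate 2 Nfil3 was 6.92, against 6.34 to 6.57 in the other E4bp4-/- arrays, and Gata3 was also highest of these. Gata3 was 6.16 in E4bp4-/- replicate 1, the lowest of all arrays, where Id2 was 9.19, and 6.97 in replicate 2. In the other E4bp4-/- arrays it was 6.33 to 6.50, against 6.76 to 7.31 in E4bp4+/+ arrays. Icos lay between 5.91 and 6.19 in all E4bp4-/- arrays and between 6.28 and 6.60 in E4bp4+/+ arrays, so replicates 1 and 2 were low there too. The fourth gene, Il2ra, which encodes CD25, named after its values were seen, differed by -0.73 ± 0.16 log2 (limma adjusted p 0.148).

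**Figure D4:**
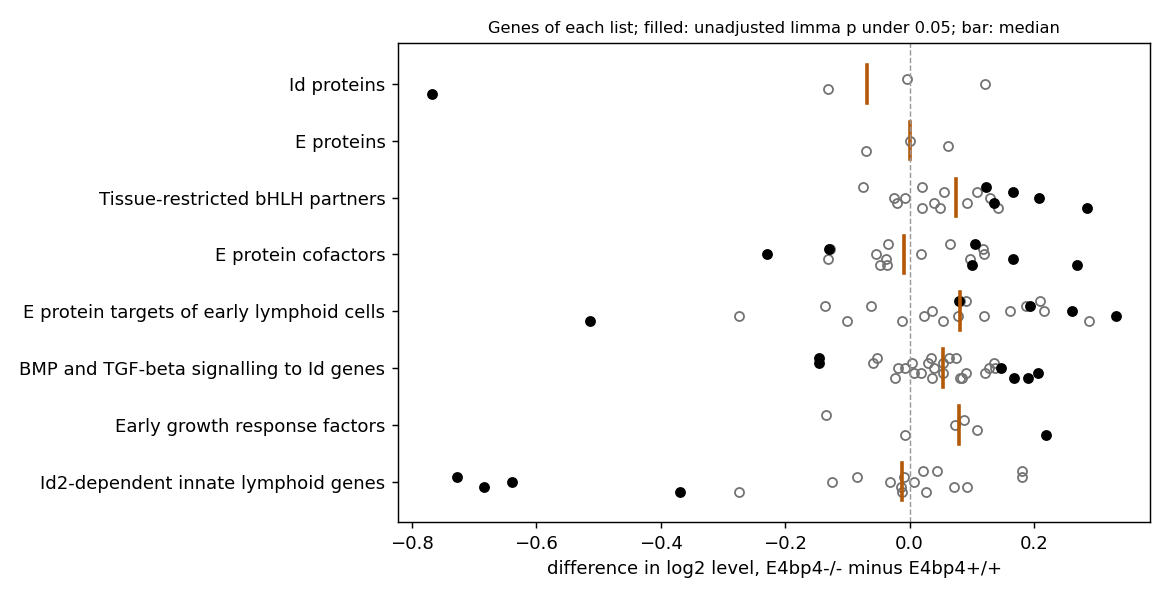
Difference in log2 level, E4bp4-/- minus E4bp4+/+ (horizontal axis), for each gene of the Id and E protein groups and of 6 lists; filled points have an unadjusted limma p under 0.05 and bars are list medians. Id2 lies at -0.77 among the Id genes. The innate lymphoid list holds 4 filled points, all below 0, among them the targeted gene Nfil3. The lists were chosen with earlier results of these data known.

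Markers of other marrow cells were read beside Id2, since myeloid and dendritic cells also express it. Depletion by GR1, CD11b, NK1.1, B220 and Ter119 is meant to remove neutrophils, monocytes, NK cells, B lineage cells and erythroid cells. In E4bp4-/- replicates 1 and 2, the arrays with high Id2, the mean of 15 neutrophil markers was 10.15 and 8.89, against 7.95 to 8.72 in the other E4bp4-/- arrays and 7.97 to 8.89 in E4bp4+/+ arrays. Neutrophil markers had 14 of 15 higher means in E4bp4-/- marrow and 0 with an unadjusted p under 0.05, and a difference of list means of 0.32 log2. That difference was 0.04 without E4bp4-/- replicate 1, with 10 of 15 higher and 2 of them at an unadjusted p under 0.05. The mean of 13 monocyte and macrophage markers was 7.98 and 7.04 in those arrays, against 6.67 to 6.98 in the other E4bp4-/- arrays and 6.65 to 7.09 in E4bp4+/+ arrays. All 13 monocyte and macrophage markers had higher means in E4bp4-/- marrow, and 0 had an unadjusted p under 0.05. The direction turned without E4bp4-/- replicate 1: the difference of list means was -0.025 log2, against 0.17 with all arrays, and 5 of the 12 markers then tested were higher.

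Conventional dendritic cell markers, 15 in number with 7 higher and 8 lower, averaged 7.36 and 7.18 in E4bp4-/- replicates 1 and 2, against 6.73 to 6.98 in the other E4bp4-/- arrays and 6.96 to 7.41 in E4bp4+/+ arrays. At an unadjusted p under 0.05 there were 4 lower and 2 higher genes, and 5 and 2 without E4bp4-/- replicate 1. These genes are named after their values were seen. The lower ones were the MHC class II chain H2-Eb1 at -0.43 ± 0.09 log2, with no overlap between genotypes, and 3 others. These were the class II chains H2-Aa at -1.34 ± 0.34 and H2-Ab1 at -0.55 ± 0.16, and Xcr1 at -0.19 ± 0.08. The higher ones were Flt3 at 0.36 ± 0.11 and Irf4 at 0.28 ± 0.11. Of the same list, Zbtb46 and Batf3 differed by 0.06 ± 0.08 and -0.0028 ± 0.08. E4bp4+/+ replicate 1, which had the highest Id2 of all arrays, also had the highest mean of this list. Of the E4bp4+/+ arrays it was highest for monocyte and macrophage and for NK markers too. Replicate 2, with the lowest Id2 of that genotype, was highest for neutrophil markers at 8.89, and replicate 6 for eosinophil markers at 10.32. The 9 NK markers tested averaged 6.57 and 6.40 in E4bp4-/- replicates 1 and 2, against 6.19 to 6.33 in the other E4bp4-/- arrays and 6.28 to 6.46 in E4bp4+/+ arrays. Of these NK markers 7 of 9 had higher means, but 4 of 9 without E4bp4-/- replicate 1. Nkg7, named after its values were seen, averaged 11.69 in E4bp4-/- and 11.67 in E4bp4+/+ marrow, and Gzmb, the next highest, 7.11 in both. The SE of the Nkg7 difference was 0.25 log2, against 0.09 for Klrd1, the next largest. How far Nkg7 alone moved the NK list mean was not tested, and that mean gives no number of NK cells. Eosinophil markers, 7 in number, averaged 10.32 and 9.94 in E4bp4-/- replicates 1 and 2, against 7.93 to 9.80 in the other E4bp4-/- arrays and 8.66 to 10.32 in E4bp4+/+ arrays. Of these eosinophil markers 4 of 7 had higher means, but 0 of 7 without E4bp4-/- replicate 1. Several lists, within and outside the NK lineage, were thus high in the same E4bp4-/- arrays as Id2, though not all lists were. Basophil and mast cell markers followed this less closely, with means of 9.33 and 8.89 in E4bp4-/- replicates 1 and 2 but 8.99 in replicate 3. Erythroid markers had 0 of 11 higher means and their list mean was 10.90 to 11.35 in E4bp4-/- arrays, against 11.20 to 11.53 in E4bp4+/+ arrays, with 2 of 11 higher without E4bp4-/- replicate 1. The lowest erythroid mean, 10.90, was that of E4bp4-/- replicate 1, and replicate 2 had 11.26.

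In the deposited values the genotypes were separated by the list mean for stem cell markers and, narrowly, for T cell markers. Stem cell markers had 13 of 13 higher means, 8 at an unadjusted p under 0.05, with list means of 7.42 to 7.48 in E4bp4-/- arrays, against 7.19 to 7.36 in E4bp4+/+ arrays. T cell markers had 8 of 10 higher means, 3 at an unadjusted p under 0.05, with list means of 6.36 to 6.43 in E4bp4-/- arrays, against 6.24 to 6.35 in E4bp4+/+ arrays. Without E4bp4-/- replicate 1 the counts were 13 and 7 for stem cell markers and 7 and 3 for T cell markers. The gap of the T cell means was narrow, between 6.349 and 6.357. Their median difference was 0.06 log2, but 0.03 with quantile scaling and 0.02 with arrays centred on their medians. For stem cell markers it was 0.17, 0.15 and 0.13 in the same order. Whether the list means stay apart under those scalings was not tested. Megakaryocyte markers had 9 of 9 higher means, with list means of 9.63 to 10.73 in E4bp4-/- arrays, against 9.61 to 10.29 in E4bp4+/+ arrays; 4 had an unadjusted p under 0.05, and 8 without E4bp4-/- replicate 1. Of the E4bp4-/- arrays, replicates 1 and 2, with high Id2, had the lowest megakaryocyte means, 9.63 and 10.27, against 10.44 to 10.73 in the others. The part of stem cells, T cells and megakaryocytes in the Id2 values was not tested. The plasmacytoid dendritic cell list, which depends on Tcf4, had 12 of 14 higher means in E4bp4-/- marrow, with list means of 7.94 to 8.33, against 7.86 to 8.14 in E4bp4+/+ marrow. The difference of its list means was 0.10 log2, and 0.05 without E4bp4-/- replicate 1.

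**Figure D5:**
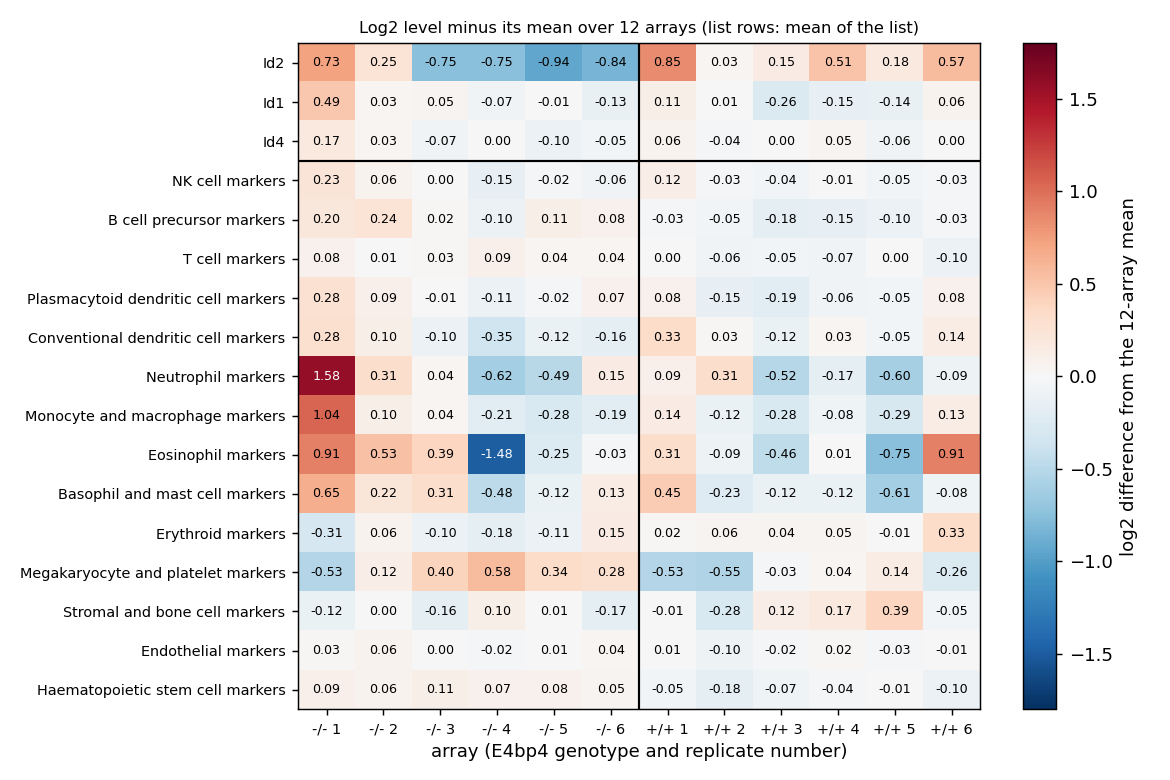
Log2 level minus its mean over 12 arrays, for Id2, Id1 and Id4 and for the mean of each of 14 marker lists (rows), on 6 E4bp4-/- arrays (left) and 6 E4bp4+/+ arrays (right). E4bp4-/- replicate 1 is high in Id2, Id1 and Id4 and in the neutrophil and the monocyte and macrophage lists, with list means of 10.15 and 7.98.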

How the data were processed

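Levels of lineage-depleted bone marrow RNA were measured on 12 arrays, 6 per genotype, and all 12 columns were matched to samples by their labels. The authors deposited 1 log2 value for each transcript cluster and array, normalised by RMA16 in GeneSpring GX version 11 per the series design text. The log2 scale was read from the range, 3.18 to 14.33. No scanner output was analysed here, and the background step was kept as deposited. RMA pulls arrays toward 1 distribution, which hides a shift shared by most genes.

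Transcript clusters under the 20th percentile of every array were dropped (5219 dropped, 29541 kept). The genotype difference of each came from limma (version 3.58.1, R version 4.3.3; lmFit and eBayes without covariates), with Benjamini-Hochberg adjustment over all 29541, and single genes also by exact permutation over 924 regroupings. Intervals are 95% limma intervals. Correlations used 100000 shuffles. In the platform annotation, 21640 transcript clusters had 1 gene, 1321 had more than 1 and 11799 were unnamed. For a gene in a list, the row of highest mean was used, and 260 of 293 list genes were tested. RefSeq gene and promoter tables of GRCm38.p6 gave names, neighbours and sequences; the sources here do not state a build for the array values.

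Named genes were the 7 members, Nfil3, the 3 of lowest p in each of 6 pathway lists and the 5 most like a member with an unadjusted p under 0.05. Members and lists were chosen with earlier results of these data known. Alternatives were other filters and scalings, an intensity trend, weights per array, a covariate for sex-linked genes, a block of replicate numbers, and arrays left out; list counts without E4bp4-/- replicate 1 were added after seeing the data. The fit was tested on simulated data. Each array held a separate mouse, per the series design text, and the number of arrays limits the precision.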

Additional observations from a re-analysis of the deposited data

Results flagged for a closer look

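Values are given here where the highest or lowest array of a genotype was separated from the next by more than 0.625 of the range over its 6 arrays. Of 56 sets of 6 values examined, 8 met this, where chance gives about 1 in 20 sets (2.8). Among the members, Id1 in E4bp4-/- replicate 1 was 7.54, against 6.92 to 7.10 on the other E4bp4-/- arrays. Id3 in E4bp4-/- replicate 3 was 6.55, against 6.84 to 6.97. Tcf3 in E4bp4+/+ replicate 1 was 10.74, against 10.84 to 10.87 on the other E4bp4+/+ arrays. The targeted gene Nfil3 in that same array was 7.66, against 6.94 to 7.18.

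Means of marker and pathway lists stood apart in 4 cases. The monocyte and macrophage mean of E4bp4-/- replicate 1 was 7.98, against 6.67 to 7.04. The NK cell marker mean of E4bp4+/+ replicate 1 was 6.46, against 6.28 to 6.32, a list in which Nkg7 had by far the highest level. In E4bp4+/+ replicate 6 the erythroid mean was 11.53, against 11.20 to 11.26, and the mean of E protein cofactors was 10.14, against 10.08 to 10.10. Id2 met the criterion in neither genotype.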

How the results depend on the processing

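The Id2 difference kept its sign and stayed past an unadjusted p of 0.05 in limma under all 21 alternatives, between -0.99 and -0.65 log2, and missed the adjusted threshold in each (adjusted p from 0.174 to 0.389). These are not separate checks. Other filters, the intensity trend and the replicate block could not move the estimate of -0.77. The sex-linked covariate marked only E4bp4-/- replicate 1, so it gave nearly the same fit as leaving that array out. Id1, Id3, Tcf4 and Tcf12 kept their signs as well. Tcf3 changed sign when arrays were centred on their medians (-0.0390) and with single arrays left out (-0.019 to 0.037), and Id4 did with single arrays left out (-0.039 to 0.016); both stayed near 0. The count of transcript clusters past the adjusted threshold was 0, but 5 with array weights, 4 with a sex-linked covariate and 0 to 4 with single arrays left out (4 without E4bp4-/- replicate 1, and 1 without E4bp4-/- replicate 2 or E4bp4+/+ replicate 2), none of them a member; the cause was not tested. The replicate block gave 0 such transcript clusters and 5149 at an unadjusted p under 0.05, against 4391 without it, and -0.77 for Id2. Same-numbered arrays correlated at -0.033 to 0.46, the highest being number 1. For E4bp4-/- replicates 1, 5 and 6 the closest E4bp4+/+ array was the one of the same number. The sample labels do not call the numbers pairs, and they were not taken as such. Whether same-numbered arrays share a source of variation was not tested. Small differences of the E proteins are limited by 6 arrays per genotype.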
